A study of Mus musculus with 3 samples.

Results

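Histone lysine methyltransferases and acetyltransferases write marks on the histone tails around which DNA is wound, and demethylases remove the methyl marks. The 50 genes described here are the rows of the deposited counts table whose symbols begin with Kmt, Kdm, Setd or Kat followed by a number, together with Crebbp, Ep300, Nsd1, Dot1l, Ehmt1, Ehmt2, Suv39h1 and Suv39h2, out of 22976 genes in that table. Opposite-strand transcripts were left out. Methylation of lysine 4 of histone H3 (H3K4) marks active promoters and enhancers, methylation of H3K9 marks silent chromatin, H3K36 and H3K79 methylation follow transcribed gene bodies, and acetylation is found at active regulatory regions. Several of these enzymes are needed for neuronal development, and mutations in the human genes KMT2A, KMT2D, EHMT1, CREBBP, KDM5C and KDM6A cause syndromes with intellectual disability.

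The RNA came from NSC-34, a mouse hybrid line made from neuroblastoma and embryonic spinal cord cells enriched in motor neurons. The resistant cells were clone 1 and clone 2, wild-type cells with spontaneous resistance to PR20 that had been given 10 µM PR20 over 3 weeks, each a clone with 1 library. PR20 is a peptide of proline-arginine repeats, and such repeats are made from the C9ORF72 expansion in inherited amyotrophic lateral sclerosis. The clones were set against 1 library of wild-type NSC-34 cells labelled as untreated, to ask which transcripts differ in resistant cells.

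Clone 1 held 11389663 gene counts, clone 2 held 11307034 and the untreated library 11700755. The labelled line was checked against marker lists. Hand2, a sympathetic lineage factor, stood at 345 and 312 CPM in clones 1 and 2, against 408 CPM in untreated cells, while the motor neuron marker Chat had 0 reads in both clones and 7 in untreated cells. The 7 sympathetic or neuroblastoma markers summed to 596 and 521 CPM in clones 1 and 2, against 1020 CPM in untreated cells, with none at 0 and all 7 lower in both clones. The 6 motor neuron markers analysed summed to 5.78 and 4.85 CPM in clones 1 and 2, against 23.2 CPM in untreated cells, with 5 lower in both clones, Chat and Lhx3 at 0 in both clones, and Mnx1 at 1 and 3 reads, against 1. Fibroblast markers (6, none at 0, 1 lower in both clones) summed to 80.3 and 105 CPM in clones 1 and 2, against 82.7 CPM in untreated cells, and endothelial markers (4, none at 0, 3 lower in both clones) to 15.7 and 17.6 CPM, against 31.9 CPM. Macrophage or microglia markers (4) summed to 0.712 and 0.449 CPM in clones 1 and 2, against 0.664 CPM in untreated cells, with Aif1 at 0 in both clones. Astrocyte markers (3) summed to 1.33 and 2.42 CPM in clones 1 and 2, against 1.83 CPM in untreated cells, and oligodendrocyte lineage markers (4) to 3.91 and 3.68 CPM, against 4.82 CPM. The part of these shifts in the results below was not tested, and in bulk RNA fewer cells of a type and less RNA per cell cannot be told apart.

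Of the 50 genes, 47 passed the filter on low counts. The quasi-likelihood test of edgeR, with a Benjamini-Hochberg adjusted p under 0.05 over all tested genes as the threshold, called 28 of them higher in the resistant clones and 2 lower, and 17 did not pass; 50.1% of all tested genes were called in either direction. Over all 13705 tested genes 24.3% were called higher and 25.8% lower. Averaging 10 CPM or more, as 45 of the 47 did, 9424 genes had 32.4% called higher and 25.1% called lower. The median log2 fold change of the 47 genes was 0.30, beside 0.002 over all tested genes. The changes were small: 22 of the 28 genes called higher changed by less than 1.5-fold, 6 by 1.5-fold or more, and none of the 47 reached 2-fold. Both clones lay above the untreated library for 36 genes and below it for 8, and for 3 they lay on either side of it, where over all tested genes 44.0% and 44.5% had both clones above and both below. The list was chosen with earlier results of these data known and was given no test of its own.

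The spread behind these calls comes from the 2 clones alone, and an exact permutation of 2 clones against 1 untreated library could not give a p below 0.333. The count of genes called higher was 28 in the legacy fit of edgeR (23.8% of all tested genes), 15 with DESeq2 (11.5%), 11 with a preset variation of 10% between libraries (10.5%), and 0 with a preset variation of 20% (1.14%; 3 at an unadjusted p under 0.05). The count called lower was 2 with DESeq2 (10.6%), 1 with a preset variation of 10% (15.9%) and 0 with a preset variation of 20% (7.24%; 1 at an unadjusted p under 0.05). With no filter on low counts edgeR called none of the 50 genes, with 24 higher and 2 lower at an unadjusted p under 0.05, where 0.0% of all 22976 genes were called higher and 0.0174% lower. The authors' deposited table lists 12 of the 47 with an adjusted p under 0.05 and higher in the clones and 2 lower, beside 10.0% and 9.77% of the genes it adjusted. All 14 were also edgeR calls, with matching sign. Ehmt2, Kat6a, Kdm3a, Kdm3b, Kdm4b, Kmt2a, Kmt2b, Setd1a and Setd5, all higher, and Kdm7a, lower, were called in each fit except those with a preset variation of 20% or no filter on low counts. DESeq2 called Crebbp, Dot1l, Ehmt1, Kdm2a, Kmt5a and Setd2 besides these 9 genes that rose, and the preset variation of 10% called Kat6b and Kdm2b besides them. The other calls of higher genes were lost under both. Resistance, the exposure to PR20 and the selection of a clone coincide in these libraries and cannot be told apart, and the labels do not say whether PR20 was present at harvest.

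**Figure D1:**
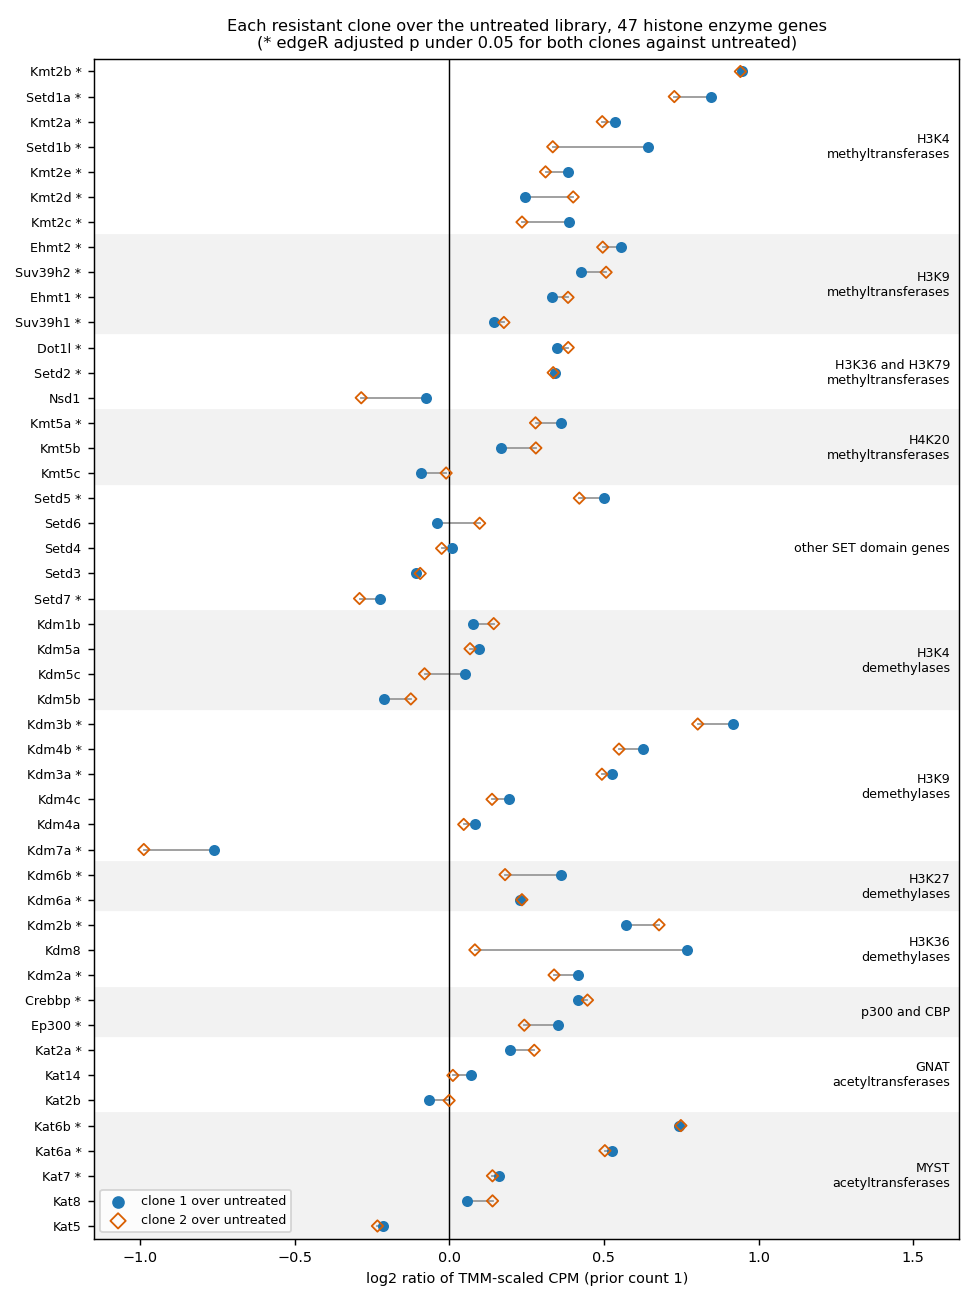
The log2 ratio of clone 1 (filled circles) and clone 2 (open diamonds) over the untreated library on the x axis, for the 47 tested genes on the y axis grouped by activity, with a line joining the clones and an asterisk at an edgeR adjusted p under 0.05. All 7 genes grouped as H3K4 methyltransferases lie right of 0 in both clones, while Kdm7a lies farthest to the left.

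The 6 largest rises were those of Kmt2b, Kdm3b, Setd1a, Kat6b, Kdm2b and Kdm4b, and the 2 falls were those of Kdm7a and Setd7. RefSeq on GRCm38.p6 gave promoter entries for 37 of the 47 tested genes and for 1 gene under the filter. Windows of 250 bases before the first listed start are shown for the gene with the larger fall and for 3 genes that rose. The 3 were the largest rises among genes with an entry and with at most 30 exon bases of Gencode M21 in the window. The falls had the same limits. Kmt2a is not among the 6 largest rises named above. The choice was made after the values were seen. Capitals mark motifs found on either strand: the GC box (GGGCGG), the CCAAT box (CCAAT), the hypoxia response element core (ACGTG) and its variant (GCGTG), an ETS factor motif (CCGGAAG) and the cyclic AMP response element (TGACGTCA). Neighbouring matches overlap in places. The windows are chr6:39206774-39207023 (minus strand) for Kdm7a, chr14:21499520-21499769 (plus strand) for Kat6b, chr5:122988508-122988757 (minus strand) for Kdm2b and chr9:44881290-44881539 (minus strand) for Kmt2a. The Kat6b and Kdm2b windows lie within the gene spans of Gencode M21, which places another start further upstream.
Kdm7a: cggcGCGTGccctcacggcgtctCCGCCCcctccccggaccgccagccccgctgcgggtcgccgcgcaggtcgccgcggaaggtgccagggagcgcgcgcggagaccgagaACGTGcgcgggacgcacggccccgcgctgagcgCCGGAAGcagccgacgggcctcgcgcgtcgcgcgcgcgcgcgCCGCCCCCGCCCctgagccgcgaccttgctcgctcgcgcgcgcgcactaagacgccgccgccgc
Kat6b: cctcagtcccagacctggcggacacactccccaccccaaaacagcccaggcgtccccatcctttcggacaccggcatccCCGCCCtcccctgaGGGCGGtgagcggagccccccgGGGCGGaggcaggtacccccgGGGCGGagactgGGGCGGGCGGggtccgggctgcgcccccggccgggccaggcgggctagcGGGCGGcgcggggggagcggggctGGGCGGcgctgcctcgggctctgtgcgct
Kdm2b: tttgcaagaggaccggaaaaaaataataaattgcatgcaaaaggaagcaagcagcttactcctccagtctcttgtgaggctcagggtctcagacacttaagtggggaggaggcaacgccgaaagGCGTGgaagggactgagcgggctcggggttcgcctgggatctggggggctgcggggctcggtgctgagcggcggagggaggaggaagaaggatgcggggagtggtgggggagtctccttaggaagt
Kmt2a: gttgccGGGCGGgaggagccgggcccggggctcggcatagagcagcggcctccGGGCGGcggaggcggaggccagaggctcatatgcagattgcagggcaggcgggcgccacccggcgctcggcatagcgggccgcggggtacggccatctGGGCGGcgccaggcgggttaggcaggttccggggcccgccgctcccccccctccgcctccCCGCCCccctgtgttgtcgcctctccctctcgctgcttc

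The Kdm7a window held 56 CG pairs, 3 GC boxes, 1 ACGTG, 1 GCGTG and 1 ETS motif. Among the genes that rose, the Kat6b window held 27 CG pairs and 8 GC boxes, the Kmt2a window 29 CG pairs and 4 GC boxes, and the Kdm2b window 12 CG pairs and 1 GCGTG. Over the 38 genes with an entry the median was 17.5 CG pairs, against 6 over the first listed promoters of 27025 genes. GC boxes were present in 63.2% of the 38 windows and 32.9% of all windows, CCAAT boxes in 36.8% and 34.5%, ACGTG in 21.1% and 16.6%, GCGTG in 44.7% and 28.2%, the ETS motif in 13.2% and 7.1%, and TGACGTCA in 2.6% and 1.6%. These matches describe the letters in the windows and not the binding of a factor. The 27025 genes were not limited to those that passed the filter on low counts, as 37 of the 38 did. No comparison with tested genes alone was made.

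The genes grouped as H3K4 methyltransferases are those of the catalytic subunits of the COMPASS complexes and their relative Kmt2e. All 7 rose, beside 24.3% of all tested genes and 32.4% of those averaging 10 CPM or more. The median log2 fold change of the 7 genes was 0.50. Setd7, a monomethylase gene with histone and other substrates, was grouped elsewhere and fell (log2 fold change -0.26). Kmt2b, whose product trimethylates H3K4 at promoters, had 119 CPM in each clone, against 61.7 CPM in untreated cells. Its fitted change was 0.94 ± 0.07 on the log2 scale (SE; adjusted p = 1.42e-08 with edgeR). The clones differed by less than 1 CPM, and both lay far above the untreated library. Kmt2b (ENSMUSG00000006307) lies on chromosome 7 of GRCm38, from 30568858 to 30588726.

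Setd1a, the catalytic gene of a complex that deposits much of the cell's trimethylated H3K4, had 56.3 and 51.9 CPM in clones 1 and 2, against 31.3 CPM in untreated cells. Its fitted change was 0.79 ± 0.09 on the log2 scale (SE; adjusted p = 3.81e-06 with edgeR). In Gencode M21, 51.8% of its exon bases are shared with Gm49388 on the same strand, so its count is uncertain. Its paralog Setd1b stood at 1.79 CPM per kilobase of exons in the clones, where Setd1a stood at 7.96. Setd1b had 23.96 and 19.3 CPM in clones 1 and 2, against 15.3 CPM in untreated cells (log2 fold change 0.50 ± 0.15, SE; edgeR adjusted p = 0.0119). The gap between the clones was larger for Setd1b than the gap between clone 2 and the untreated library.

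Kmt2a, the MLL gene rearranged in human leukaemias, had 135 and 131 CPM in clones 1 and 2, against 93.0 CPM in untreated cells, a change of 0.52 on the log2 scale (adjusted p = 5.91e-06 with edgeR). Kmt2c and Kmt2d encode the enhancer H3K4 monomethylases. Kmt2c had 114 and 103 CPM in clones 1 and 2, against 87.5 CPM in untreated cells, and Kmt2d had 130 and 144 CPM, against 109 CPM. Their log2 fold changes were 0.31 and 0.32 (edgeR adjusted p = 0.00217 and 0.00124), with clone 1 the higher clone for Kmt2c and clone 2 for Kmt2d. Kmt2e, whose product reads trimethylated H3K4 and has no established methyltransferase activity, had 109 and 104 CPM in clones 1 and 2, against 83.5 CPM in untreated cells (log2 fold change 0.35; edgeR adjusted p = 0.000491). DESeq2, the authors' deposited table and the preset variation of 10% each called 3 of these 7 genes, Kmt2a, Kmt2b and Setd1a, as higher, where over all genes 11.5% were called higher by DESeq2, 10.0% in the authors' deposited table and 10.5% with the preset variation.

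None of the 4 genes for H3K4 demethylases was called by edgeR, by DESeq2, with RLE size factors or with a preset variation of 10%, though Kdm5b was called lower when genes averaging under 1 CPM were left out. Over all tested genes edgeR called 50.1% in either direction, and DESeq2 called 11.5% higher and 10.6% lower. Kdm5c, an X-linked gene mutated in human intellectual disability, had 187 and 171 CPM in clones 1 and 2, against 181 CPM in untreated cells, so that the untreated value lay between the clones (log2 fold change -0.01 ± 0.06, SE). Kdm5a had 78.7 and 77.1 CPM in clones 1 and 2, against 73.6 CPM in untreated cells, and Kdm5b had 57.4 and 61.0 CPM, against 66.6 CPM. The edgeR adjusted p was 0.357 for Kdm5a and 0.0823 for Kdm5b. Kdm1b, a flavin-dependent demethylase gene, had 11.4 and 11.96 CPM in clones 1 and 2, against 10.8 CPM in untreated cells. Summed per kilobase of merged exons, the 7 methyltransferase genes came to 53.3 and 51.7 CPM per kilobase in clones 1 and 2, against 35.7 in untreated cells, and the 4 demethylase genes to 37.5 and 35.4, against 36.6. The 7 genes include Kmt2e, which has no established methyltransferase activity, and leave out Setd7, which was grouped elsewhere. Setd7 went the other way, with 20.97 and 20.03 CPM per kilobase in clones 1 and 2, against 24.5 in untreated cells. The size of the rise in the methyltransferase sum therefore depends on this grouping. The demethylase sum depends on it too, as each gene was counted in a single group. Whether the sets of writers and erasers differ was not tested.

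**Figure D2:**
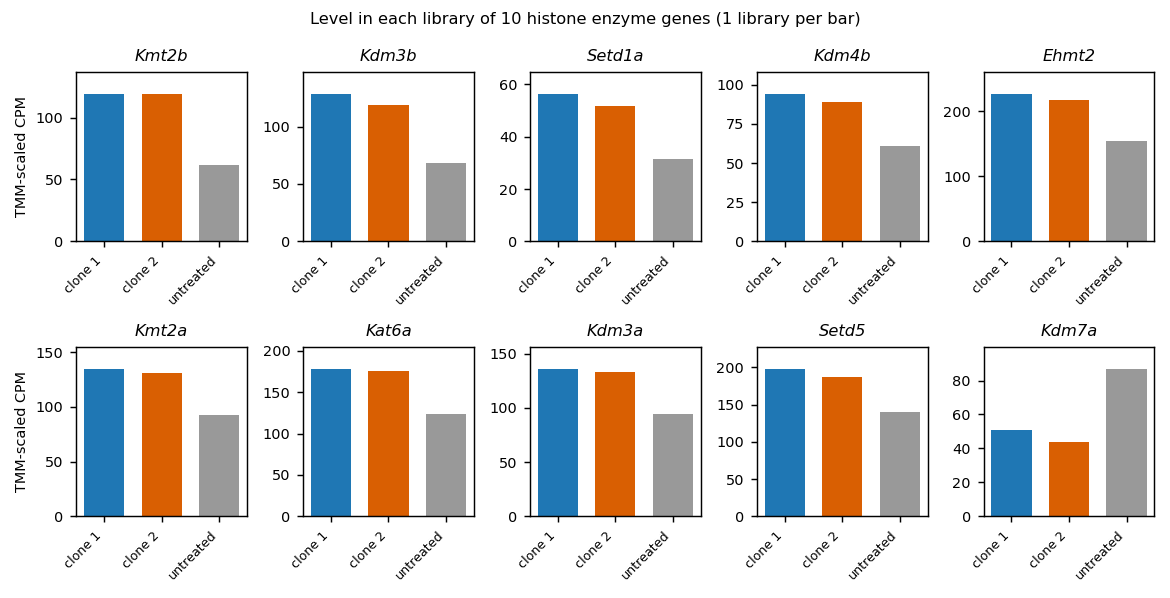
TMM-scaled CPM on the y axis of the 10 genes that were called in each fit except those with a preset variation of 20% or no filter, with 1 bar for each library (clone 1, clone 2, untreated). In 9 panels both clones stand above the untreated bar, and for Kdm7a both stand below it.

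All 4 H3K9 methyltransferase genes rose, beside 24.3% of all tested genes and 32.4% of those averaging 10 CPM or more. Ehmt2, which encodes G9a, the enzyme of H3K9 dimethylation in euchromatin, had 227 and 218 CPM in clones 1 and 2, against 154 CPM in untreated cells. Its fitted change was 0.53 ± 0.06 on the log2 scale (SE; adjusted p = 1.73e-06 with edgeR), and at 40.5 CPM per kilobase it was the most abundant of the 47 genes per exon length in the clones, against 28.1 in untreated cells. Its partner Ehmt1 had 109 and 113 CPM in clones 1 and 2, against 86.4 CPM in untreated cells (log2 fold change 0.36; edgeR adjusted p = 0.000296).

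Suv39h1 and Suv39h2 encode the enzymes that trimethylate H3K9 in pericentromeric heterochromatin. Suv39h2 had 31.8 and 33.6 CPM in clones 1 and 2, against 23.6 CPM in untreated cells, a change of 0.47 ± 0.11 on the log2 scale (SE; adjusted p = 0.00202 with edgeR). The difference of the X-linked Suv39h1 was smaller, with 122 and 125 CPM in clones 1 and 2, against 110 CPM in untreated cells (log2 fold change 0.16; edgeR adjusted p = 0.0431), and it was not called with RLE size factors, DESeq2 or a preset variation of 10%. DESeq2 called Ehmt1 and Ehmt2, and the preset variation of 10% called Ehmt2, among these 4.

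The H3K9 demethylase genes moved in both directions. Kdm3b, which encodes a mono- and dimethyl H3K9 demethylase, had 128 and 119 CPM in clones 1 and 2, against 67.9 CPM in untreated cells, a change of 0.86 ± 0.07 on the log2 scale (SE; adjusted p = 7.70e-08 with edgeR). Its paralog Kdm3a, known to be induced by hypoxia in human cells, had 136 and 133 CPM in clones 1 and 2, against 94.4 CPM in untreated cells, a change of 0.51 ± 0.06 on the log2 scale (SE; adjusted p = 6.12e-06 with edgeR). In both genes the clones lay close together and above the untreated library. In Gencode M21, 24.6% of the exon bases of Kdm3b overlap the long noncoding RNA gene Gm26538 on the opposite strand.

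Among the trimethyl H3K9 and H3K36 demethylase genes, Kdm4b rose, with 94.1 and 89.3 CPM in clones 1 and 2, against 61.0 CPM in untreated cells (log2 fold change 0.59 ± 0.07, SE; edgeR adjusted p = 6.18e-06). Kdm4a had 91.7 and 89.5 CPM in clones 1 and 2, against 86.7 CPM in untreated cells, and Kdm4c had 30.5 and 29.3 CPM, against 26.6 CPM. Neither passed (edgeR adjusted p = 0.454 for Kdm4a and 0.214 for Kdm4c), though both clones lay above the untreated value for each. Kdm4d and its relative Kdm4dl did not pass the filter, with 9 and 4 reads of Kdm4d in clones 1 and 2, against 8 in untreated cells, and 4 and 1 reads of Kdm4dl, against 3.

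Kdm7a fell, and it was the largest fall among the 47 genes. Its product removes dimethyl marks from H3K9 and H3K27. Kdm7a (ENSMUSG00000042599; chromosome 6, 39136623 to 39206789) had 51.1 and 43.7 CPM in clones 1 and 2, against 86.8 CPM in untreated cells. The fitted change was -0.87 ± 0.09 on the log2 scale (SE; adjusted p = 5.11e-07 with edgeR), and the gap between the clones was small beside their distance from the untreated library.

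The 2 genes grouped as H3K27 demethylases, which oppose Polycomb silencing, rose by less than 0.32 on the log2 scale. Over all tested genes 24.3% were called higher, and 32.4% of those averaging 10 CPM or more. Kdm7a, whose product also acts on H3K27, was grouped with the H3K9 demethylases and fell. Kdm6b had 83.1 and 73.3 CPM in clones 1 and 2, against 64.7 CPM in untreated cells (log2 fold change 0.27; edgeR adjusted p = 0.0116). The X-linked Kdm6a had 48.0 and 48.2 CPM in clones 1 and 2, against 40.9 CPM in untreated cells (log2 fold change 0.23; edgeR adjusted p = 0.0352). Neither was called by DESeq2 or with a preset variation of 10%.

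Of the 3 genes assigned to H3K36 demethylation, Kdm2a and Kdm2b rose. Kdm2a had 112 and 107 CPM in clones 1 and 2, against 84.3 CPM in untreated cells (log2 fold change 0.38; edgeR adjusted p = 0.000234). Kdm2b, whose product also recruits a Polycomb complex to CpG islands, had 17.1 and 18.4 CPM in clones 1 and 2, against 11.5 CPM in untreated cells (log2 fold change 0.63 ± 0.15, SE; edgeR adjusted p = 0.00282). Kdm2b was not called by DESeq2, nor in the authors' deposited table (adjusted p = 0.217). Kdm8, a JmjC oxygenase gene, had 7.57 CPM in clone 1 and 4.67 CPM in clone 2, against 4.41 CPM in untreated cells (edgeR adjusted p = 0.199). It was the only 1 of the 47 genes in which the clones differed from each other by more than 0.32 on the log2 scale, which 16.9% of all tested genes did.

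For the marks of transcribed gene bodies, Setd2, the H3K36 trimethylase gene, had 151 and 150 CPM in clones 1 and 2, against 119 CPM in untreated cells (log2 fold change 0.34; edgeR adjusted p = 0.000211). Dot1l, the H3K79 methyltransferase gene, had 104 and 106 CPM in clones 1 and 2, against 81.4 CPM in untreated cells (log2 fold change 0.37; edgeR adjusted p = 0.000269). Both rose. Nsd1, an H3K36 dimethylase gene, had 11.8 and 10.2 CPM in clones 1 and 2, against 12.4 CPM in untreated cells, and it did not pass (edgeR adjusted p = 0.414).

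Of the H4K20 methyltransferase genes, Kmt5a, which encodes the monomethylase active in mitosis, rose, with 164 and 155 CPM in clones 1 and 2, against 128 CPM in untreated cells (log2 fold change 0.32; edgeR adjusted p = 0.000452). Kmt5b and Kmt5c, whose products add the further methyl groups, did not pass. Kmt5b had 32.3 and 34.97 CPM in clones 1 and 2, against 28.8 CPM in untreated cells, and Kmt5c had 39.5 and 41.7 CPM, against 42.0 CPM.

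The remaining Setd genes encode enzymes that act largely on other proteins or have disputed activity. Setd5, whose loss in humans causes intellectual disability, rose, with 198 and 187 CPM in clones 1 and 2, against 140 CPM in untreated cells (log2 fold change 0.46 ± 0.06, SE; edgeR adjusted p = 1.10e-05). Setd7, a monomethylase gene with histone and other substrates, fell, with 227 and 217 CPM in clones 1 and 2, against 265 CPM in untreated cells (log2 fold change -0.26 ± 0.05, SE; edgeR adjusted p = 0.00101), and was not called with a preset variation of 10%. The actin histidine methyltransferase gene Setd3 had 72.5 and 73.2 CPM in clones 1 and 2, against 78.1 CPM in untreated cells. Setd6, which encodes a methylase of the NF-kappaB subunit RelA, had 17.8 and 19.6 CPM, against 18.3 CPM, and Setd4 had 2.76 and 2.70 CPM, against 2.75 CPM. For Setd6 and Setd4 the untreated value lay between the clones, and none of these 3 passed.

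Among the acetyltransferase genes 6 of 10 tested rose and none fell, beside 24.3% and 25.8% of all tested genes. Of tested genes averaging 10 CPM or more, 32.4% were called higher and 25.1% lower. DESeq2 called 2 of the 10, Crebbp and Kat6a, as higher, beside 11.5% of all tested genes. Crebbp and Ep300 encode CBP and p300, the coactivators that acetylate H3K27 at enhancers. Crebbp had 83.1 and 84.9 CPM in clones 1 and 2, against 62.2 CPM in untreated cells (log2 fold change 0.43 ± 0.07, SE; edgeR adjusted p = 0.000117), and Ep300 had 160 and 148 CPM, against 125 CPM (log2 fold change 0.30; edgeR adjusted p = 0.00113). Both clones lay above the untreated library for each gene, and DESeq2 called Crebbp alone of the pair.

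In the MYST family, named for MOZ, Ybf2, Sas2 and TIP60, the paralogs Kat6a and Kat6b, genes for H3K23 acetyltransferases, had the largest rises. Kat6a had 178 and 175 CPM in clones 1 and 2, against 124 CPM in untreated cells (log2 fold change 0.51 ± 0.06, SE; edgeR adjusted p = 2.74e-06). Kat6b had 18.4 and 18.5 CPM in clones 1 and 2, against 10.98 CPM in untreated cells (log2 fold change 0.75 ± 0.15, SE; edgeR adjusted p = 0.000649). Kat6b was not called by DESeq2, nor in the authors' deposited table (adjusted p = 0.111). Kat7, which encodes the H3K14 acetyltransferase HBO1, had 153 and 151 CPM in clones 1 and 2, against 137 CPM in untreated cells (log2 fold change 0.15; edgeR adjusted p = 0.0448), and was not called with RLE size factors, DESeq2 or a preset variation of 10%, nor in the authors' deposited table (adjusted p = 0.516). Kat8, the H4K16 acetyltransferase gene, had 21.6 and 22.9 CPM in clones 1 and 2, against 20.8 CPM in untreated cells, and Kat5, the TIP60 gene, had 21.2 and 20.9 CPM, against 24.6 CPM. Neither passed (edgeR adjusted p = 0.534 for Kat8 and 0.129 for Kat5).

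The GNAT genes Kat2a and Kat2b encode GCN5 and PCAF, alternative acetyltransferases of the SAGA and ATAC coactivator complexes. Kat2a had 112 and 118 CPM in clones 1 and 2, against 97.9 CPM in untreated cells (log2 fold change 0.24; edgeR adjusted p = 0.00703). Kat2b had 60.48 and 63.28 CPM in clones 1 and 2, against 63.33 CPM in untreated cells (edgeR adjusted p = 0.743), and Kat14, an ATAC subunit gene, had 29.9 and 28.8 CPM, against 28.5 CPM. The pseudogene Kat2b-ps had 1 read in each clone and 2 in untreated cells and did not pass the filter.

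**Figure D3:**
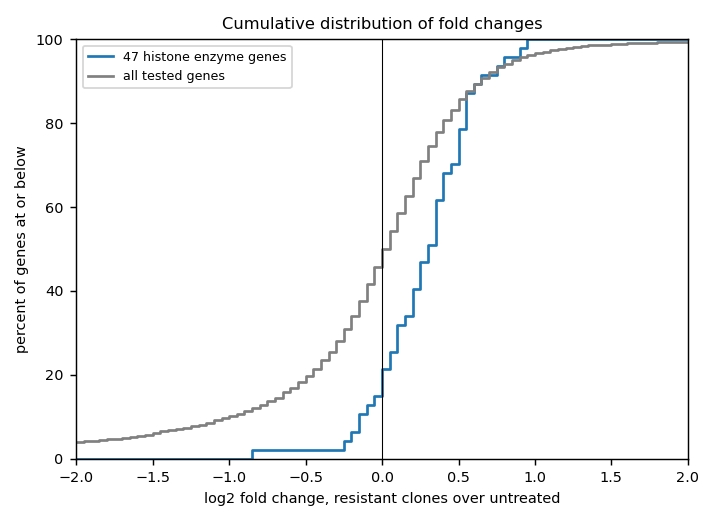
The percentage of genes on the y axis with a log2 fold change (resistant clones over untreated) at or below the value on the x axis, for the 47 tested genes and for all tested genes. At a log2 fold change of 0 the curve of the 47 genes stands at 21.3% and that of all tested genes at 49.9%, while at 0.65 they stand close together, at 91.5% and 90.9%.

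Per kilobase of merged exons, Ehmt2, Kat2a, Kmt5a, Kat7 and Kdm5c were the most abundant of the 47 genes in the clones, with 40.5, 33.2, 30.1, 27.4 and 25.2 CPM per kilobase on average. The same 5 genes were among the 6 most abundant in untreated cells, with 28.1, 28.1, 24.1, 24.7 and 25.5 CPM per kilobase, beside Setd7 at 24.5. Kat6b, Nsd1 and Setd4 were the lowest in the clones, at 1.10, 0.627 and 0.507 CPM per kilobase, against 0.653, 0.709 and 0.511 in untreated cells. Kmt2b moved to rank 15 of 47 in the clones, against rank 26 in untreated cells, and Kdm7a to rank 38, against rank 21. Merged exon lengths count rare exons, so levels of genes with long alternative ends may be understated. The 22 methyltransferase genes summed to 262 and 258 CPM per kilobase in clones 1 and 2, against 214 in untreated cells. The 15 demethylase genes summed to 139 and 130, against 117, and the 10 acetyltransferase genes to 130 and 131, against 114.

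Median levels over whole chromosomes differed between the libraries, and values of the genes are given beside them. The median log2 fold change of all tested genes was 0.26 on chromosome 7, 0.41 on chromosome 18, -0.28 on chromosome 15 and -0.22 on chromosome X. Kmt2b and Setd1a lie on chromosome 7 and Kdm3b on chromosome 18, and their log2 fold changes stood 0.68, 0.53 and 0.45 above the median of their chromosome. The other 3 genes on chromosome 7, Kmt5c, Kat8 and Kdm8, were not called. Ep300 and Kmt2d rose on chromosome 15, where they stood 0.58 and 0.60 above its median, and Suv39h1 and Kdm6a rose on chromosome X. All 28 genes called higher had a log2 fold change above the median of their chromosome, and 25 of them by at least 0.32. Without the median subtracted, 20 rose by at least 0.32. Outside chromosomes 7 and 18 no chromosome holding these genes had a median above 0.12, and the smallest rise called was 0.15. There, lying above the median was fixed by the choice of called genes. Off chromosomes 7, 15, 18 and X, 21 of 36 genes were called higher and 2 lower, with a median of 0.29. Of all tested genes off these chromosomes 22.7% were called higher and 25.6% lower, with a median of -0.01.

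**Figure D4:**
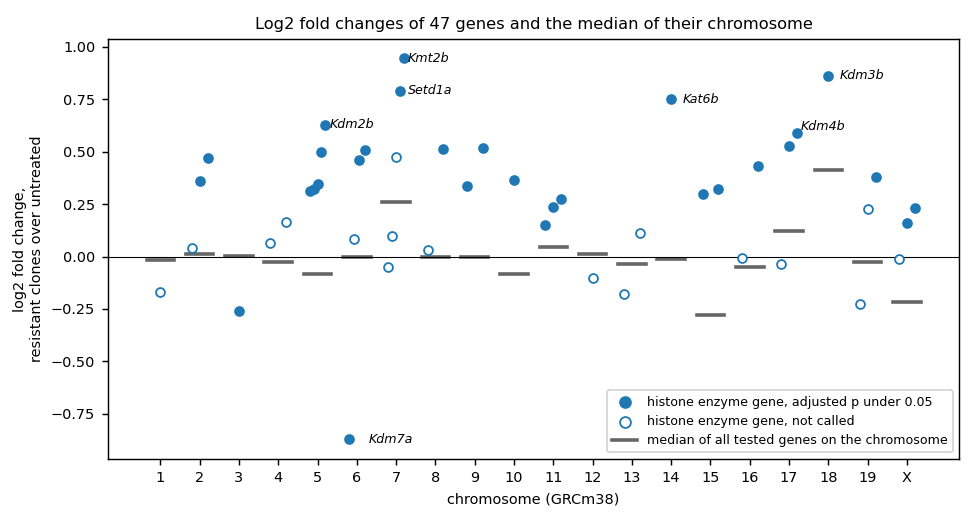
The log2 fold change of the resistant clones over untreated cells on the y axis for each of the 47 tested genes (points, filled at an adjusted p under 0.05) by chromosome on the x axis, with the median of all tested genes on the chromosome as a bar. Kmt2b, Setd1a and Kdm3b lie on chromosomes whose bars stand at 0.26 and 0.41, and Kdm7a lies on chromosome 6 with a bar near 0.

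Genes for partner subunits moved in both directions. Their counts read against 24.3% called higher and 25.8% called lower over all tested genes. Among genes averaging 10 CPM or more, the shares were 32.4% and 25.1%. Of 12 tested COMPASS subunit genes 6 rose and 2 fell. Hcfc1, a scaffold gene of COMPASS and of an acetyltransferase complex, had 565 and 551 CPM in clones 1 and 2, against 322 CPM in untreated cells, and Cxxc1, which guides the SETD1 complexes to CpG islands and lies on chromosome 18, had 71.1 and 73.7 CPM, against 39.3 CPM. Wdr5 and Paxip1 rose with log2 fold changes of 0.42 and 0.46. Of 19 SAGA and ATAC genes 10 rose and 3 fell, among them Tada2b (60.3 and 64.8 CPM in clones 1 and 2, against 37.6 CPM in untreated cells), Taf5l and Yeats2, which rose by 0.47 and 0.45 on the log2 scale, and the SAGA deubiquitinase gene Usp22, which fell (94.6 and 86.4 CPM, against 132 CPM).

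Of 17 TIP60 and NuA4 subunit genes 8 rose and 4 fell, with Ruvbl2, an ATPase gene on chromosome 7, at 167 and 188 CPM in clones 1 and 2, against 84.9 CPM in untreated cells, and the X-linked Morf4l2 at 154 and 169 CPM, against 405 CPM. Brd8 and Ep400 rose with log2 fold changes of 0.66 and 0.49. Of 19 subunit genes of the MOZ, HBO1, MSL and NSL complexes 13 rose and 3 fell. Shares over all tested genes were 24.3% called higher and 25.8% called lower. Jade1 and Jade2, scaffold genes of HBO1, rose with log2 fold changes of 0.65 and 0.71, while the X-linked Msl3, a subunit gene of the complex of the H4K16 acetyltransferase, fell to 23.9 and 31.8 CPM in clones 1 and 2, against 101 CPM in untreated cells (log2 fold change -1.86; edgeR adjusted p = 8.69e-10).

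Enzyme genes outside the naming rule were counted too. Of 13 tested lysine methyltransferase genes and relatives with other names 4 rose and none fell, and the H3K36 dimethylase gene Nsd2 had 567 and 571 CPM in clones 1 and 2, against 405 CPM in untreated cells. Ash1l and Smyd5 rose with log2 fold changes of 0.48 and 0.43. Setbp1, listed with them but encoding a protein that binds the SET protein and no methyltransferase, was left out of this count and rose by 0.75 on the log2 scale (adjusted p = 1.49e-05 with edgeR). Of 12 JmjC genes 2 rose, Phf2 and Jmjd6 (log2 fold changes 0.57 and 0.55), and 1 fell, the X-linked demethylase gene Phf8 (40.0 and 37.8 CPM in clones 1 and 2, against 66.0 CPM in untreated cells). Riox1 did not pass (log2 fold change 0.35; edgeR adjusted p = 0.0908). Of 16 acetyltransferase genes with other names 9 rose and 1 fell, with Esco2, Esco1, Nat10 and Hat1 at log2 fold changes of 0.53, 0.49, 0.41 and 0.31. Of 15 genes listed under HP1 and histone methylation readers 7 rose and 3 fell. This list also held Trim28, a corepressor gene on chromosome 7, with 723 CPM in each clone, against 382 CPM in untreated cells. Uhrf1 and Ing1 rose with log2 fold changes of 0.53 and 0.57, and Spin1 fell with a log2 fold change of -0.50. These counts read against 24.3% called higher and 25.8% called lower over all tested genes.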

How the data were processed

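Polyadenylated RNA of 3 NSC-34 libraries was sequenced with a stranded kit, per the labels' protocols. The counts are whole reads per gene made by the authors with STAR's gene counting option, per the file headers, which name STAR 2.5, Gencode M16 (Ensembl 91) and GRCm38/mm10, while the submitters' processing notes name STAR 2.5.3. No source used here states the strand setting of the counting. Counts of overlapping or antisense genes are therefore uncertain, and 20 of the tested genes share exon bases with another gene in Gencode M21. The deposited RPM columns, the same counts scaled to each library's total, were not used. The authors' deposited table, made with DESeq2 per the file headers, holds a fold ratio, log2 fold changes, standard errors and p-values, and its log2 fold changes and adjusted p-values were read.

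Counts were filtered with filterByExpr (13705 genes kept) and scaled with TMM factors, and CPM values here carry those factors. At these depths 3 counts stand for 0.267 CPM in clone 1, 0.270 in clone 2 and 0.250 in untreated cells, and this covers counting error only. The clones were tested against the untreated library with edgeR 4.0.16 (quasi-likelihood F test, two-sided, legacy option off, R 4.3.3), with Benjamini-Hochberg adjustment over all tested genes. Only the 2 clones give a spread (1 residual degree of freedom, moderated across genes), and no label says that the libraries came from separate cultures, so p-values measure only the spread between these libraries. A standard error is the log2 fold change over the square root of F. Each clone's own ratio was formed with 1 count added. Positions and merged exon lengths came from Gencode M21 (GRCm38), which matched 13692 of the 13705 tested genes, and promoters from RefSeq.

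Genes and lists were chosen with earlier results of these data known. 1 gene with a name of this kind was not analysed here. Every gene found by the rule is named, and from each partner list up to 4 genes with the lowest edgeR p. Alternatives were DESeq2 1.42.0, RLE size factors, other low-count filters, legacy and robust fits, limma-voom (limma 3.58.1), likelihood ratio tests in edgeR at preset variations of 10% and 20%, a prior count of 5, and each clone left out.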

Additional observations from a re-analysis of the deposited data

How the results depend on the processing

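The count of genes called higher (28) stayed between 26 and 28 with RLE size factors, a mean of at least 1 CPM, the legacy and robust fits and limma-voom. It was 15 with DESeq2, 11 with a preset variation of 10% and 0 with a preset variation of 20%, and the count called lower (2) was 2, 1 and 0 there. With no filter on low counts, both counts were 0, with 24 genes higher and 2 lower at an unadjusted p under 0.05, and they were also 0 when the legacy fit was used with no filter, an alternative chosen after seeing the data (24 and 2 at an unadjusted p under 0.05). In the unfiltered fit, moderation across genes was worth 1.16 prior degrees of freedom, against 14.6 with the filter. At a preset variation of 20%, 3 genes were higher and 1 lower at an unadjusted p under 0.05. The median log2 fold change of the tested genes ranged from 0.24 to 0.33 with a clone left out, values that carry no test. Setd4 (log2 fold change -0.01) turned to 0.0012 without the filter and to 0.0011 without the filter in the legacy fit. No paired analysis was possible because there is 1 untreated library. With 1 untreated library, a difference of that library and effects of resistance, PR20 exposure or clonal selection cannot be told apart.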
